A study of Drosophila melanogaster with 12 samples.

Results

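The respiratory chain of the mitochondrial inner membrane passes electrons from NADH and succinate to oxygen, and ATP synthase uses the proton gradient that results to make ATP. Complex I oxidizes NADH, complex II (succinate dehydrogenase) oxidizes succinate and is also an enzyme of the TCA cycle, complex III hands electrons to cytochrome c, complex IV (cytochrome c oxidase) reduces oxygen and complex V is ATP synthase. Most subunits are encoded in the nucleus, and insect flight muscle is packed with mitochondria. Many *Drosophila* subunits also have a duplicated copy in the genome, and several of these copies are known to be expressed mainly in testis.

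Transcripts of these subunits were measured in *loj* mutant and control females. The members are all probe sets that the array annotation gives to a single gene whose symbol begins with ND-, Sdh, UQCR-, COX or ATPsyn. There are 81 such probe sets, of 73 genes, among 18769 probe sets in all. By symbol, 59 probe sets of 51 genes belong to ubiquitous subunits, 21 probe sets of 21 genes to paralogs (a final L, or L with a digit) and 1 to an assembly factor, *Sdhaf3*. The ubiquitous subunits comprise 30 probe sets of complex I, 3 of complex II, 4 of complex III, 10 of complex IV and 12 of complex V. *ND-MNLL* was counted as a ubiquitous subunit, because its final L comes from the name of its mammalian counterpart. Another 4 probe sets, each shared with a gene outside the chain, were left out by the rule. Of 88 nuclear genes in the current gene table whose symbols fit, 15 have no probe set among the members and were not analysed here, among them *SdhA* and *UQCR-C1*.

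Arrays (Affymetrix *Drosophila* Genome 2.0) were hybridized with RNA of 12 samples, 3 for each combination of genotype and tissue. Mutants carried loj 00898 over loj 04026, alleles of a p24 gene whose product takes part in transport between the endoplasmic reticulum and the Golgi. Each mutant sample held tissue of 12 females, and each control sample pooled 6 loj 00898/+ with 6 loj 04026/+ females, so that controls also carried 1 mutant allele. All females were aged 4 days and had been mated to wild-type males, and tissue was frozen 3 h after mating as abdomen or as head with thorax (head/thorax). The intensity of the *loj* transcript ranged in controls from 921 to 1087 (abdomen) and from 1034 to 1220 (head/thorax). In mutants it ranged from 37.5 to 43.2 and from 30.9 to 40.3.

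Each value is the linear intensity of a probe set, and the median of an array lay between 93.4 and 102 for abdomen and between 145 and 160 for head/thorax. Since the sources do not say how arrays were scaled, differences between tissues are given for the values as deposited and again after each array was centred on its median. Background was set on each array by the 27 probe sets for bacterial transcripts, at their 95th percentile, which lay between 76.8 and 131 for abdomen and between 126 and 256 for head/thorax. Differences are on the log2 scale, and a probe set was called at a Benjamini-Hochberg adjusted p (limma) under 0.05 over all 18769 probe sets and at least 1.5-fold. Only 3 arrays per group limit the precision of every value.

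The dissected tissues were told apart by their markers. Of 8 flight and body muscle genes measured, 8 were higher in control head/thorax, and their summed intensity was 1603 to 1905 in control abdomens and 50157 to 51744 in control head/thorax (1722 to 1822 and 49830 to 52420 in *loj*). *TpnC4* and *fln* of the flight muscle averaged 68.2 and 40.2 in control abdomens, below background. All 6 ovary and germline genes measured were lower in control head/thorax, where *gus* alone was above background, and their summed intensity was 32826 to 36985 in control abdomens and 2763 to 2859 in control head/thorax. Of 4 neuronal genes, 4 were called higher in control head/thorax. There *elav* and *nSyb* were above background on every array, *brp* on 1 of 3 and *para* on none. Of 4 fat body genes, 1 (*Lsp2*) was called higher. In such tissue pieces a larger share of a cell type and more RNA per cell cannot be told apart, and the part of muscle in the differences between tissues was not tested.

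Subunits of every complex were higher in head/thorax than in abdomen. In controls, 55 of 59 subunit probe sets were called higher and none lower, against 33% of all probe sets called higher and 22.6% called lower. On 56 of the 59 the 3 head/thorax arrays lay above the 3 abdomen arrays and on none below them, against 40.5% and 29.3% of all probe sets. Of 54 subunit probe sets above background on all 12 arrays, 53 were called higher in controls. The exception was *COX7A*. The log2 ratio of the 3′ to the 5′ control probe sets of *Act5C*, a sign of RNA or labelling quality, also differed between the tissues (0.76 to 0.91 on control abdomen and 1.33 to 1.44 on control head/thorax arrays), and its part in the difference was not tested. The remaining probe sets not called were *ND-B12*, 1 of 3 probe sets of *COX7B* and 1 of 2 of *COX7C*, all of them above background on no array.

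**Figure D1:**
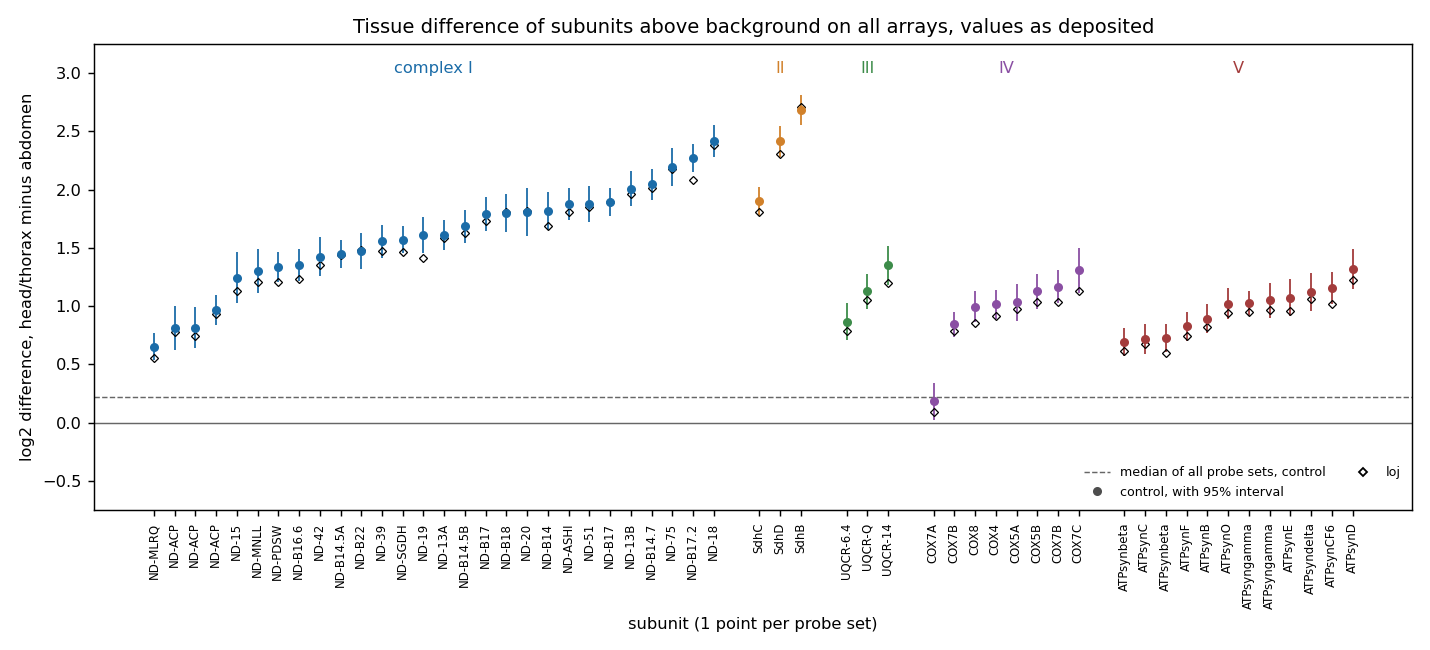
Difference between head/thorax and abdomen (log2 intensity, vertical axis) for each of 54 subunit probe sets above background on all 12 arrays, ordered within complexes I to V. Filled circles are controls with 95% intervals, open diamonds are *loj*, and the dashed line is the median of all probe sets in controls (0.22); every point but those of *COX7A* lies above it, and *SdhB* is the highest at 2.68 in controls and 2.71 in *loj*.

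The difference was largest for complex II, followed by complexes I and III, in both genotypes. The median log2 difference of subunits in controls was 2.41 for complex II, 1.61 for complex I, 1.24 for complex III, 1.02 for complex V and 1.01 for complex IV, beside 0.22 for all probe sets. In *loj* it was 2.31, 1.54, 1.13, 0.94 and 0.88, beside 0.29. In *loj*, 54 of 59 subunit probe sets were called higher and none lower, against 34.3% and 21.3% of all probe sets. The head/thorax arrays of *loj* lay above the abdomen arrays on 55 of the 59 and below them on none, against 42.3% and 27.8% of all probe sets. The median intensity of the complex I subunits was 11.13 to 11.28 on the log2 scale on control abdomen arrays and 12.68 to 12.78 on control head/thorax arrays, and that of the complex V subunits 12.48 to 12.55 and 13.55 to 13.58.

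**Figure D2:**
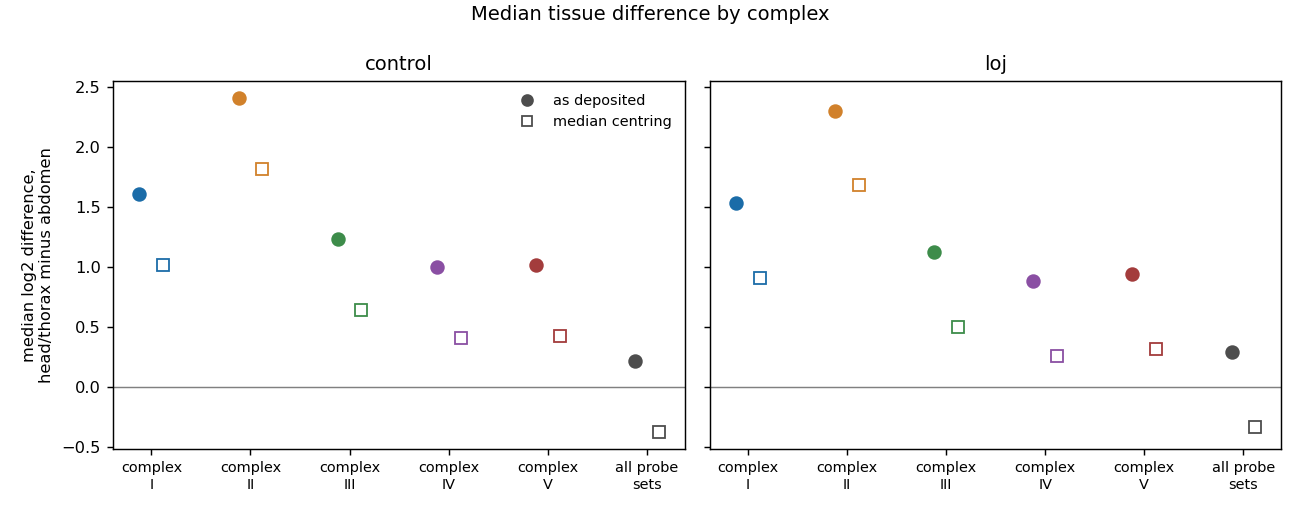
Median log2 difference between head/thorax and abdomen (vertical axis) over the subunit probe sets of each complex and over all probe sets, in control (left) and *loj* (right). Circles are values as deposited and open squares are values after median centring; centring lowers each complex, in controls to 1.82 for complex II and 0.41 for complex IV, and all probe sets to -0.37.

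How far this holds depends on the scaling. Median centring took the median of all probe sets in controls from 0.22 to -0.37, and the medians of the complexes to 1.82 (II), 1.02 (I), 0.65 (III), 0.43 (V) and 0.41 (IV). The array medians used for it lay near background. In controls they were 100, 93.4 and 102 (background 103, 91.2 and 131) for abdomen. For control head/thorax they were 145, 147 and 153 (background 206, 214 and 256). Centring thus aligned arrays on probe sets near background, and whether it is the better scaling was not tested. After centring 32 of 59 subunit probe sets were still called higher in controls, against 21.4% of all probe sets, and 25 of these 32 were of complex I, 3 of complex II, 2 of complex III and 1 each of complexes IV and V. The 1 subunit called lower, against 37.3% of all probe sets, was *ND-B12*, which was not above background. In *loj* 27 were called higher, against 21.3%, and again *ND-B12* alone lower, against 35.3%. Each complex kept a median above 0 in both genotypes.

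Probe sets bright in control abdomens did not as a whole show the same pattern. Of 2482 probe sets with a mean of 1000 to 4000 in control abdomens, 15.6% were at least 1.5-fold higher in head/thorax and their median log2 difference was -0.67, whereas 30 of 30 subunits in this range exceeded 1.5-fold, with a median of 1.74. From 4000 upwards, 13.2% of 531 probe sets exceeded it, with a median of -0.21, against 95.8% of 24 subunits with a median of 1.02. Across the 54 subunits above background on all arrays, dimmer probe sets in abdomen had larger differences (Spearman rho = -0.87). This correlation is a description, since both measures share the abdomen values and the arrays. So is the comparison by brightness, where probe sets were chosen by the control abdomen values that also enter the difference. Brightness and complex also went together: of 30 subunits from 1000 to 4000, 27 were of complex I and 3 of complex II, and of the 24 brighter ones all but *ND-MLRQ* were of complexes III, IV and V. Thus the order of the complexes and that of brightness cannot be told apart here. The highest intensity on an array was 17529 to 18435, and whether intensities near it compress a difference was not tested.

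Complex II had the largest differences. *SdhB* encodes its iron-sulphur subunit, and *SdhC* and *SdhD* the membrane anchor. *SdhB* had intensities of 1452, 1395 and 1324 in control abdomens and of 9106, 8776 and 8904 in control head/thorax, and in *loj* 1328, 1312 and 1316 in abdomen and 8660, 8790 and 8406 in head/thorax. All head/thorax arrays were far above all abdomen arrays, and the log2 difference was 2.68 ± 0.06 (SE, n = 3 arrays per tissue; limma, adjusted p = 1.34e-07) in controls and 2.71 ± 0.05 (limma, adjusted p = 4.65e-08) in *loj*. *SdhD* differed by 2.41 and *SdhC* by 1.90 in controls. After centring *SdhB* was still higher by 2.09 in each genotype.

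The assembly factor went the other way. *Sdhaf3*, counterpart of a factor that helps to mature the iron-sulphur subunit, had intensities of 515, 789 and 642 in control abdomens and of 396, 391 and 403 in control head/thorax, and of 745, 776 and 680 and 468, 451 and 458 in *loj*. It was lower in head/thorax without overlap, by -0.69 ± 0.15 on the log2 scale in controls (SE, n = 3; limma, adjusted p = 0.00592) and by -0.67 ± 0.07 in *loj* (limma, adjusted p = 0.000142). Without control abdomen 2 the difference in controls was -0.53 and no longer reached 1.5-fold.

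In complex I the differences spread over a wide range. *ND-18*, counterpart of the mammalian accessory subunit NDUFS4, had intensities of 1221, 1107 and 1141 in control abdomens and of 6309, 6131 and 6053 in head/thorax, a log2 difference of 2.42 ± 0.06 (SE, n = 3; limma, adjusted p = 2.23e-07). *ND-75*, counterpart of NDUFS1, the largest iron-sulphur subunit of the arm that binds NADH, differed by 2.19 ± 0.07 and *ND-B17.2*, counterpart of NDUFA12, by 2.27 ± 0.05. At the other end stood *ND-ACP*, the mitochondrial acyl carrier protein, which also serves fatty acid synthesis: its 3 probe sets gave 0.81, 0.82 and 0.97 in controls, and after centring none of them was called. The 2 probe sets of *ND-B17*, by contrast, gave 1.79 and 1.89 and were both called after centring.

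*ND-MLRQ* had the smallest difference of the complex I subunits above background. Its mammalian counterpart, NDUFA4, was long counted in complex I and later found in complex IV. It had intensities of 9741, 10449 and 9976 in control abdomens and 15872, 15845 and 15601 in head/thorax, without overlap. The log2 difference was 0.65 ± 0.05 in controls (SE, n = 3; limma, adjusted p = 2.19e-05) and 0.56 in *loj*, just short of 1.5-fold. After median centring it was 0.06 in controls and changed sign to -0.07 in *loj*.

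Complex III was represented by 4 small accessory subunits, all called higher in head/thorax in both genotypes. *UQCR-14* rose from 5766, 6445 and 5505 in control abdomens to 15001, 15410 and 14637 in head/thorax, by 1.35 ± 0.07 (SE, n = 3; limma, adjusted p = 3.88e-06), and *UQCR-6.4* by 0.87 ± 0.06. *UQCR-11* exceeded background on 0 of 3 control abdomen and 1 of 3 control head/thorax arrays. Its intensities were 77.1, 56.8 and 57.0 in control abdomens and 276, 195 and 198 in control head/thorax, so that no fold is given for controls. In *loj* it exceeded background on 2 of 3 abdomen arrays (89.4, 97.4 and 60.7) and 3 of 3 head/thorax arrays (225, 253 and 243).

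Most complex IV subunits had like differences. *COX4* and *COX5A*, which sit beside the mitochondrially encoded core, differed by 1.02 ± 0.05 and 1.03 ± 0.07 in controls, and *COX8* by 0.99 ± 0.06. *COX7C* had the largest difference, 1.31 ± 0.08 (SE, n = 3; limma, adjusted p = 9.98e-06). After centring only this probe set of complex IV was called in controls (0.71), and no subunit of the complex was called in *loj*. For *COX7B* the probe sets above background gave 1.17 and 0.84.

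*COX7A* stood apart from the other subunits, and a paralog showed the opposite extreme. *COX7A* encodes subunit VIIa, for which mammals have a heart and muscle form and a liver form. Its intensities were 6303, 6029 and 5478 in control abdomens and 6631, 6951 and 6578 in control head/thorax, and in *loj* 6380, 6219 and 5580, and 6567, 6568 and 6150. The groups lay close together, without overlap in controls and with overlap in *loj*. The log2 difference was 0.18 ± 0.07 in controls (SE, n = 3; limma, adjusted p = 0.0479, under 1.5-fold) and 0.09 in *loj* (limma, adjusted p = 0.29), and with either rescaling it changed sign, to -0.41 after median centring and -0.25 after quantile normalization in controls.

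The paralog *COX7AL2* had intensities of 136, 122 and 167 in control abdomens and of 12396, 12821 and 12218 in control head/thorax. In *loj* it had 149, 144 and 155 in abdomen and 12081, 12023 and 12415 in head/thorax. The abdomen values were low but above background on every array, and the log2 difference was 6.47 ± 0.12 in controls (SE, n = 3; limma, adjusted p = 9.62e-08) and 6.35 ± 0.05 in *loj* (limma, adjusted p = 1.02e-08). After centring it was 5.88 and 5.73. This was the largest difference between the tissues of any member above background in both. Its probe set is of a type that may match more than 1 transcript, although the annotation names a single gene.

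**Figure D3:**
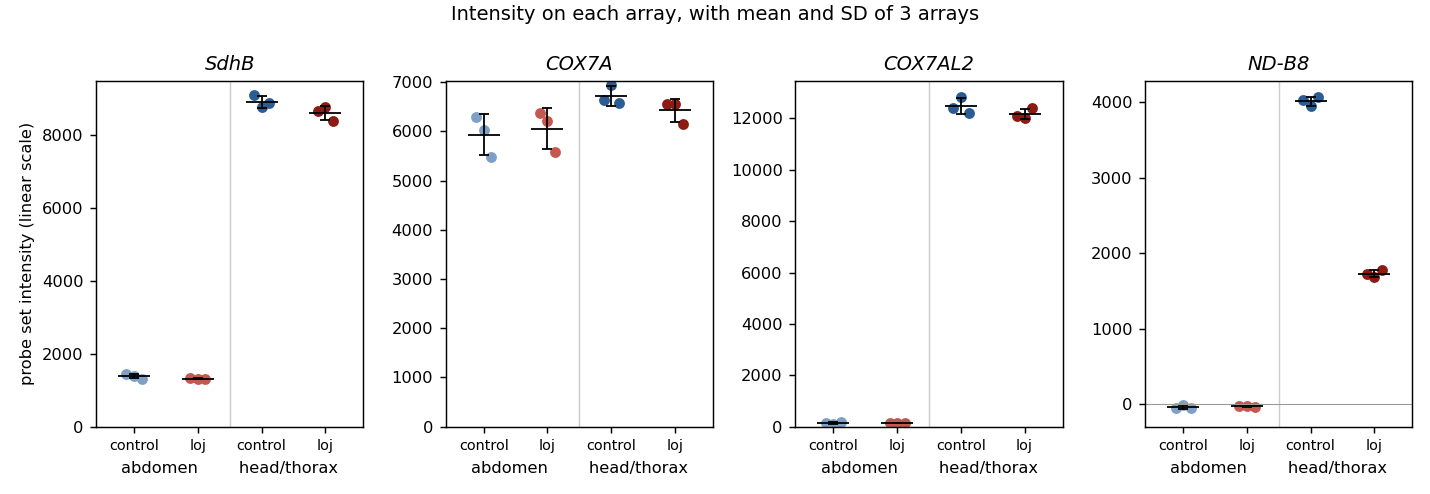
Intensity (linear scale, vertical axis) on each of 12 arrays for *SdhB*, *COX7A*, *COX7AL2* and *ND-B8*, with the mean and SD of the 3 arrays of each genotype and tissue. *COX7A* lies between 5478 and 6951 on all arrays, *COX7AL2* at 122 to 167 in abdomen but at 12023 to 12821 in head/thorax, and *ND-B8* below 0 in abdomen and lower in *loj* than in control head/thorax.

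The subunits of ATP synthase differed by 0.69 to 1.32 in controls, and all 12 probe sets were called in both genotypes. *ATPsynbeta* encodes the catalytic beta subunit. Its brighter probe set went from 10477, 11014 and 10158 in control abdomens to 17452, 16891 and 16812 in head/thorax, a log2 difference of 0.69 ± 0.05 (SE, n = 3; limma, adjusted p = 2.13e-05), and its other probe set gave 0.73 ± 0.05. After median centring these were 0.10 and 0.13 in controls and turned to -0.01 and -0.03 in *loj*. *ATPsynD*, subunit d of the peripheral stalk, had the largest difference, 1.32 ± 0.07, and was the only subunit of the complex called after centring, at 0.73.

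Of the 21 paralogs, 16 were above background on no array. These were *ND-24L*, *ND-51L1*, *ND-51L2* and *ND-B14.5AL* of complex I, *SdhAL*, *SdhBL* and *SdhCL* of complex II and *UQCR-11L* of complex III. The others were *COX4L*, *COX6AL2*, *COX6CL* and *COX7AL* of complex IV and *ATPsynCF6L*, *ATPsynGL*, *ATPsynbetaL* and *ATPsynepsilonL* of complex V. *COX6AL* exceeded background on 1 control and 1 *loj* abdomen array, and *COX5BL* on 1 *loj* head/thorax array. On all 12 arrays only *COX7AL2* and *UQCR-14L* exceeded background. *UQCR-14L* had 236, 213 and 272 in control abdomens and 243, 304 and 404 in control head/thorax, which overlap, and 194, 194 and 239 and 275, 295 and 507 in *loj*. Its log2 difference was 0.38 in controls (limma, adjusted p = 0.141) and 0.73 in *loj* (limma, adjusted p = 0.0322). The call in *loj* was lost without *loj* head/thorax 3 (0.45), without *loj* abdomen 1 or 2 (0.68 each) and after median centring (0.11). In controls the sign turned after median centring (-0.22).

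**Figure D4:**
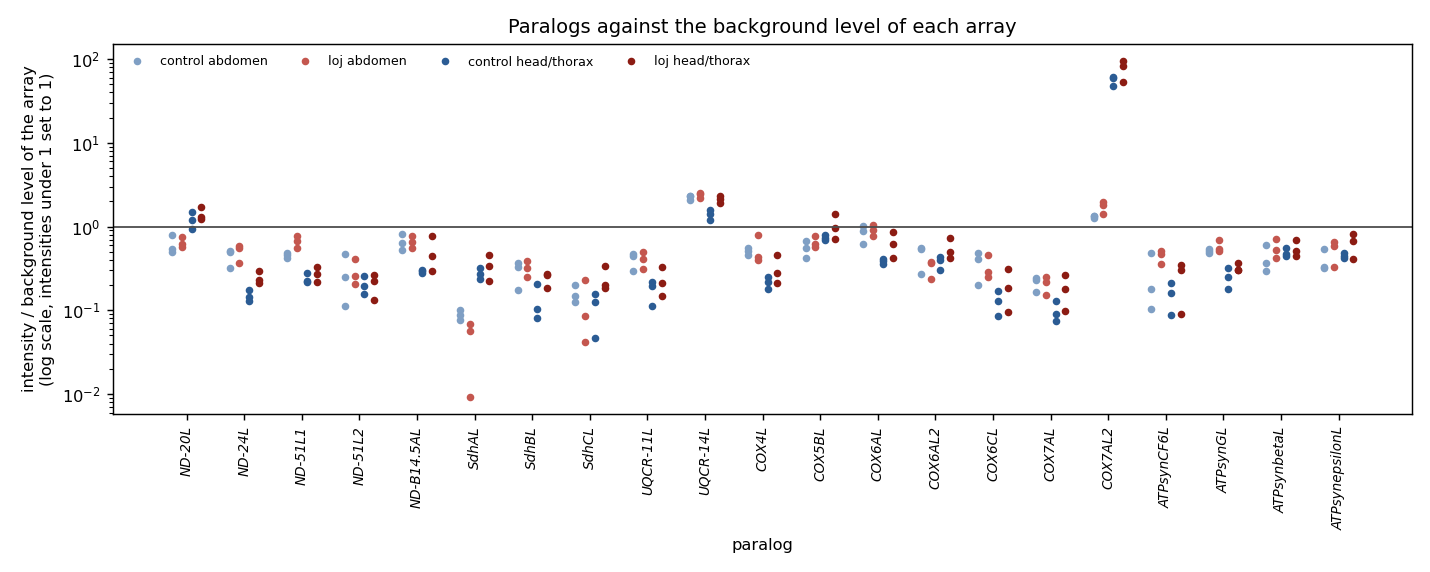
Intensity divided by the background level of the same array (log axis) for 21 paralogs on 12 arrays, with colours for genotype and tissue and a line at 1, where intensity equals background. Only *COX7AL2* and *UQCR-14L* lie above the line on all 12 arrays, and only *COX7AL2* in head/thorax lies far above it.

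*ND-20L*, the copy of a complex I iron-sulphur subunit, had 303, 200 and 310 in control and 190, 216 and 287 in *loj* head/thorax. It was above background on 2 of 3 and 3 of 3 arrays there and on none in abdomen. For values as deposited it was thus at least 2.48-fold higher in control and 2.62-fold higher in *loj* head/thorax. Of 21 paralogs the test called 7 higher in head/thorax in controls and 9 in *loj*, against 33% and 34.3% of all probe sets, but 5 of each were above background in neither tissue, so no fold is given for them. The testis and sperm genes were likewise near background: 10 of 11 were above it on no array of any group, and the exception was *Mst98Ca*.

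Between *loj* and control almost nothing in the respiratory chain passed the test. In abdomen 0 of 81 members were called, against 0.618% of all probe sets called higher and 0.256% called lower. An unadjusted p under 0.05 (limma) was reached by 1 member, against 2602 of all 18769 probe sets. Of 59 subunit probe sets 14 had a difference under 0, against 55.5% of all probe sets. This lean turned with the scaling, as 38 of 59 were under 0 after quantile normalization. The arrays of the 2 genotypes did not overlap for 5 that were higher and 1 that was lower in *loj*, against 8.96% and 10.6%. The 54 subunits above background on all arrays had a median log2 difference of 0.03 (-0.03 after quantile normalization), and their 95% intervals together ran from -0.28 to 0.37, short of 1.5-fold in either direction. The lowest adjusted p was that of *ND-PDSW*, counterpart of NDUFB10, at 2925, 2816 and 2732 in control and 3129, 3348 and 3040 in *loj* abdomens (log2 difference 0.17, adjusted p = 0.30, limma). Next were the paralog *SdhAL*, not above background, and *ND-B17.2* (0.12, limma, adjusted p = 0.383).

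In head/thorax 1 of 81 members was called, *ND-B8*, which was lower, against 0.778% of all probe sets called lower and 1.09% called higher. Small differences of the same sign were common, and their size depended on the scaling. Of 59 subunit probe sets, *ND-B8* included, 50 had a difference under 0, against 50.9% of all probe sets, and on 21 every *loj* array lay below every control array and on 0 above, against 12.5% and 11.3% of all probe sets. The 54 subunits above background on all arrays had a median of -0.05, which was -0.07 after median centring and -0.10 after quantile normalization, and their intervals lay within -0.25 to 0.14, inside 1.5-fold. An unadjusted p under 0.05 (limma) was reached by 8 of 59, against 3348 of all 18769 probe sets. After median centring 1 of 59 reached it and after quantile normalization 36. No count over all probe sets is given for these rescalings, so their counts cannot be set against a share. Of the 54, the lowest adjusted p (limma) was 0.211 as deposited, 0.452 after median centring and 0.0375 after quantile normalization, and none was called under any of these scalings. The 21 comprised *ND-B8* and 13 others of complex I, 4 of complex IV and 3 of complex V. *ND-B14.5B*, counterpart of NDUFC2, was at 8929, 8898 and 8349 in control and 8051, 8115 and 8095 in *loj* head/thorax, without overlap (-0.11, limma, adjusted p = 0.211). *Sdhaf3* had a positive difference without overlap (0.21, limma, adjusted p = 0.0886).

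Other measures of the arrays moved with genotype. The log2 ratio of 3′ to 5′ control probe sets for *Act5C* was 1.33 to 1.44 on control and 0.79 to 1.02 on *loj* arrays of head/thorax, and 0.76 to 0.91 and 0.67 to 0.72 in abdomen, without overlap in either tissue. In head/thorax the background level was 206 to 256 and 126 to 236, which overlap. The 18S rRNA controls there averaged 400, 541 and 489 on control and 5290, 697 and 765 on *loj* arrays, without overlap. The part of these measures in the small differences was not tested.

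**Figure D5:**
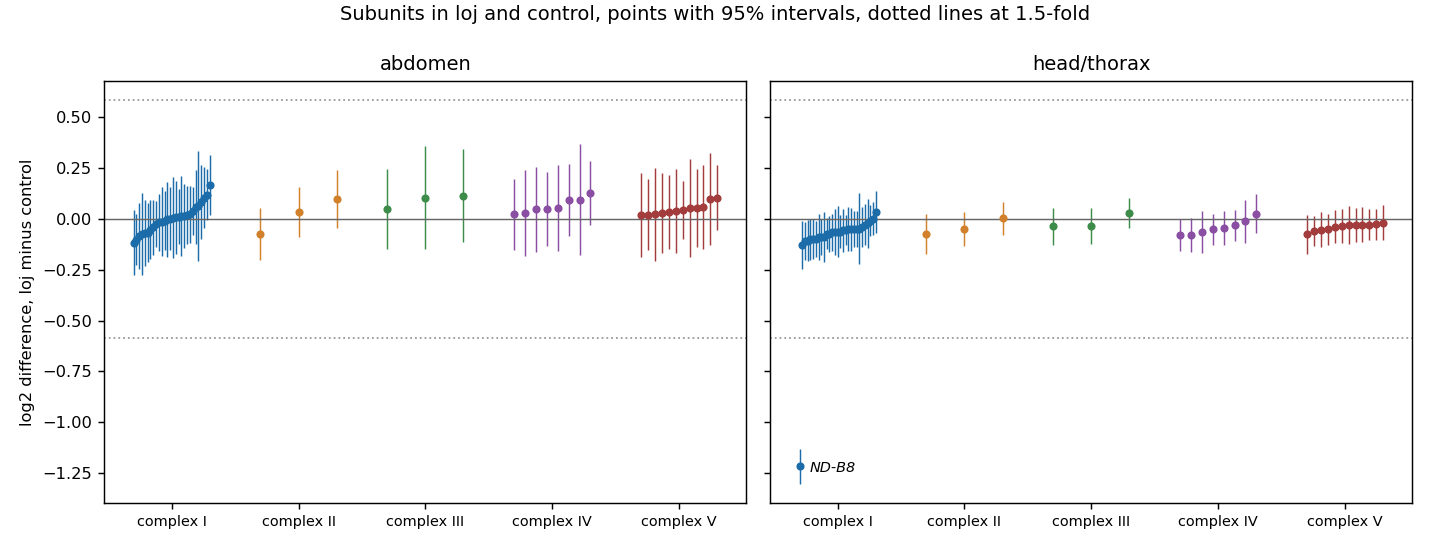
Difference between *loj* and control (log2 intensity, vertical axis) with 95% intervals for the 54 subunit probe sets above background on all 12 arrays, by complex, in abdomen (left) and head/thorax (right), with *ND-B8* added in head/thorax, where it was above background. Dotted lines mark 1.5-fold; only *ND-B8* (-1.22) lies beyond them, and most other head/thorax points lie just under 0.

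*ND-B8* is the counterpart of NDUFA2, a small accessory subunit of the matrix arm of complex I. In head/thorax its intensities were 4031, 3948 and 4062 in controls and 1722, 1685 and 1776 in *loj*, far apart and each with little spread. The log2 difference was -1.22 ± 0.04 (SE, n = 3; limma, adjusted p = 0.000167), and the 95% interval of -1.30 to -1.13 lies outside those of all other subunits above background. Leaving out any array, rescaling or the other alternatives moved it only between -1.24 and -1.14, and it was called under each.

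In abdomen the same probe set gave values below 0 on all 6 arrays, so that it was above background in neither genotype there. Whether the probe set detects the *ND-B8* transcript as intended was not tested, which bears on each value given for it. In head/thorax it was at least 37.5-fold higher than in abdomen in controls and 19.9-fold higher in *loj*, with the abdomen taken at its background level. No other subunit with a probe set above background in head/thorax on all arrays was below it in abdomen on all arrays. In the current gene table *ND-B8* overlaps 1 gene, *Gs1l*, named here after its values were seen. The brightest head/thorax probe set of *Gs1l* was at 1846, 1900 and 1989 in control and 1899, 2005 and 1847 in *loj* head/thorax, and at 1062 to 1204 in abdomen, without the pattern of *ND-B8*.

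For 1 member the interaction between genotype and tissue passed the test (adjusted p under 0.05, passed by 0.234% of all probe sets in the positive and 0.272% in the negative direction). This was *ND-B8* (-1.22 ± 0.21, SE; limma, adjusted p = 0.0294), whose abdomen values were all set to the floor of 1, so that the interaction repeats the head/thorax difference and is no measure of abdomen. The call was lost with the replicate block (adjusted p = 0.161, limma), without dim probe sets (0.0982) and without any 1 of the 6 head/thorax arrays (0.103 to 0.191). The next lowest were *ND-B17.2* (-0.19, limma, adjusted p = 0.303) and *ND-19*, counterpart of NDUFA8 (-0.20, limma, adjusted p = 0.455). Over the subunits above background on all arrays the median interaction was -0.08, beside a median of 0.02 over all probe sets. Medians of these subunits between genotypes were 0.03 in abdomen and -0.05 in head/thorax as deposited, and -0.03 and -0.10 after quantile normalization.

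Genes of the same chain with other names were mostly higher in head/thorax as well. Of 7 measured, 6 were called higher in head/thorax in each genotype, against 33% (control) and 34.3% (*loj*) of all probe sets. The median over the 7 was 1.36 in controls (0.77 after centring). Those of highest intensity were *blw*, the alpha subunit of ATP synthase, *levy* and *cype* of complex IV and *Cyt-c1* of complex III, which differed by 0.81, 1.22, 1.36 and 1.41. *Cyt-c1* averaged 4902 in control abdomens and 13048 in control head/thorax. None was called between *loj* and control in either tissue.

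Of the neighbouring pathways, the TCA cycle went the same way. All 7 genes of the TCA cycle measured were called higher in control head/thorax, with a median of 1.62 (1.03 after centring). In *loj* 6 of 7 were called higher. Of all probe sets, 33% were called higher in controls and 34.3% in *loj*. *Ogdh*, a subunit of 2-oxoglutarate dehydrogenase, differed by 2.74 and *mAcon1*, a mitochondrial aconitase, by 1.62. Of 9 carriers, channels and uncoupling proteins, 4 were called higher and 0 lower in control head/thorax, against 33% and 22.6% of all probe sets. In *loj* 5 were called higher and 1 lower (*Bmcp*, -0.73), against 34.3% and 21.3%. The median over the 9 in controls was 0.56, which turned to -0.04 after centring. The phosphate carrier *Mpcp1* averaged 60.9 ± 14.0 (SD, n = 3) in control abdomens, below background, and 11221 ± 303 in control head/thorax, while its relative *Mpcp2* differed by 0.27 and was not called. Of 4 regulators, 3 were called lower in control head/thorax and 2 in *loj*, against 22.6% and 21.3% of all probe sets. Among the 3 was the mitochondrial DNA packaging factor *TFAM* (-0.83). The other ones were *Delg*, above background on 1 of 3 control head/thorax arrays, and *mtTFB2*, on 0 of 3. *ewg* was called higher. No gene of these lists was called between *loj* and control in either tissue. The carrier *Ucp4A* was lower in *loj* head/thorax by -0.37 (limma, adjusted p = 0.0356), which fell short of 1.5-fold.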

How the data were processed

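RNA was hybridized by the authors to Affymetrix *Drosophila* Genome 2.0 arrays, 1 array per sample. The deposited files hold a linear intensity per probe set and no comparison columns. The authors worked with 3 expression measures, GCOS (1.2 per the submitters' processing notes) and dChip with and without mismatch probes. The sources used here do not say which was deposited or how arrays were scaled. Values below 0 make up 2.02% of those tested. The 183 array control probe sets were left out, intensities under 1 were set to 1 and log2 values were fitted by limma 3.58.1, run in R 4.3.3 (empirical Bayes with an intensity trend, Benjamini-Hochberg adjustment, 95% intervals). The methods' Cyber-T test was not run. Tables were joined with pandas 2.3.3 in Python 3.11.15, and the fits were tested on simulated data. Samples were separate RNA extractions, grouped by the labels. By the methods each abdomen was cut away from the head/thorax and both were frozen, so samples of both tissues may share females. The labels do not say which samples do. Tissues were compared as unpaired groups, with a replicate block as an alternative.

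The members, gene lists, rule for named genes and tests were chosen with earlier results of these data known, and the background level and the brightness classes after the data were seen. Named are every paralog, per complex the subunit of highest intensity and those of largest and smallest tissue difference, the members called or of lowest adjusted p between genotypes and for the interaction, genes whose probe sets disagree, and *ND-75*, *SdhB*, *COX4*, *COX5A* and *ATPsynbeta*; others were chosen after their values were seen. Symbols come from the array annotation, where 13647 probe sets carry 1 symbol, 402 several and 4720 none, and all 81 matched current RefSeq symbols (Release 6). A fold against a group at background takes, per array, the higher of its signal and its background level, for values as deposited only. Where a listed gene had several probe sets, the brightest on average was taken. A planned comparison of protein and promoter sequences was not run. Alternatives were median centring, quantile normalization, adding 32 before log2, leaving out dim probe sets, no trend, no fold threshold, the methods' thresholds (unadjusted p under 0.001 and 1.5-fold), a joint fit of all 12 arrays, a replicate block, 1 probe set per gene and leaving out each array; added later were leaving out subunits not above background and quantile normalization of the complex medians.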

Additional observations from a re-analysis of the deposited data

Results flagged for a closer look

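*ND-B8*, a complex I subunit, stands out because its interaction between genotype and tissue passed the test (log2 difference of -1.22, limma, adjusted p = 0.0294). In abdomen its values were below 0 on all 6 arrays and were set to the floor, so the interaction only repeats the head/thorax difference and does not show that the tissues differ in the change. The call was lost with the replicate block (adjusted p = 0.161) and without any 1 of the 6 head/thorax arrays.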

How the results depend on the processing

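Differences between tissues depended on scaling. Of 81 members, 62 in controls and 63 in *loj* were called higher in head/thorax, against 33% and 34.3% of all probe sets. After median centring these were 38 and 32, against 21.4% and 21.3%. Members called lower were 1 in each, against 22.6% and 21.3% of all probe sets. After median centring they were 8 and 4, against 37.3% and 35.3%. After quantile normalization they were 6 and 4, beside 5528 of all 18769 probe sets in controls. By the methods' thresholds there were 0 in controls. For the other settings no share over all probe sets is given. Leaving out single arrays gave 60 to 64 higher, and in controls 0 lower without control abdomen 2 and 2 (*Sdhaf3* and *ND-24L*) without control head/thorax 3. Apart from *Sdhaf3* and *COX6AL*, the members called lower under any of these settings were above background on no array. Median centring gave complex medians in controls of 1.02 (I), 1.82 (II), 0.65 (III), 0.41 (IV) and 0.43 (V), and in *loj* of 0.91, 1.68, 0.50, 0.26 and 0.32. Quantile normalization, chosen for these medians after the data were seen, gave 1.37, 2.27, 0.869, 0.661 and 0.581 in controls and 1.26, 2.09, 0.828, 0.601 and 0.528 in *loj*. Between genotypes in head/thorax it gave -0.122 (I), -0.118 (II), 0.00245 (III), -0.066 (IV) and -0.0832 (V). As deposited these were -0.06, -0.05, -0.003, -0.04 and -0.03. With 1 probe set per gene complex I in *loj* was 1.59. With only subunits above background on all 12 arrays complex III was 1.13 between tissues in controls and -0.0352 between genotypes in head/thorax (main value -0.003), and centring gave -0.024 (III), -0.0587 (IV) and -0.0536 (V) between genotypes there. Sign changed after median centring for *COX7A* (-0.41 in controls, -0.54 in *loj*; -0.25 and -0.32 after quantile normalization), *UQCR-14L* in controls (-0.22), and in *loj* both probe sets of *ATPsynbeta* (-0.0299 and -0.00998) and *ND-MLRQ* (-0.0651). Median centring lowers every difference between tissues by the same amount within a genotype, so the smallest positive ones change sign. Which scaling is nearer to the transcript levels was not tested. Of the other alternative values for single named members, 619 kept direction and call, 40 lost the call and 2 gained it.

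The interaction call of *ND-B8* was lost without dim probe sets (0 called, adjusted p = 0.0982), with the replicate block (0 called, adjusted p = 0.161) and without any 1 of the 6 head/thorax arrays (adjusted p = 0.103 to 0.191), giving 0 to 1 called; in head/thorax itself it was called under each alternative. With the replicate block the other counts were 62, 63, 1 and 1 between tissues and 0 and 1 between genotypes. Replicate numbers were not taken to pair the samples, as not every correlation of same-numbered deviations was over 0.1 in any comparison. Over all probe sets they were -0.011 to 0.031 between genotypes in abdomen, 0.044 to 0.117 in head/thorax, 0.0143 to 0.0782 between tissues in controls and -0.00183 to 0.0812 in *loj*, with 2, 6, 5 and 4 of 6 samples closest to their own number. Above the median intensity *loj* tissues gave 0.0912 to 0.259, with 6 of 6. With 3 arrays per group an exact permutation test of a single probe set cannot go below p = 0.1, and members at background give no fold.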
